A study of Mus musculus with 6 samples.

Results

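Interferon-stimulated genes are the transcripts that cells raise when interferon, a secreted antiviral signal, binds its receptors. The levels of 38 such genes, chosen by name as well-known members of this programme, were compared between OMP-treated and vehicle-treated cells of a mouse leukaemia line. All 38 were found, as 38 of the 53465 genes in the table. The cells were Nras(G12D)/MLL-AF9 cells, a line with an activated Nras allele and the leukaemic MLL-AF9 fusion, grown in RPMI with serum, SCF, IL-3 and IL-6. The labels name 1 line and do not say whether it is a single clone. OMP is 4'-O-methylpyridoxine, an analog of vitamin B6. The OMP group received 100 µM OMP for 6 days and the Vehicle group received the same volume of PBS, and each group had 3 libraries of poly(A)-selected RNA. Levels are given as RPKM, a read count scaled by gene length and library size, which allows levels to be set side by side between genes. The comparison addresses which of these transcripts differed after OMP.

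Type I interferons act through the receptor chains Ifnar1 and Ifnar2 and the kinases Jak1 and Tyk2. These activate a complex that contains Stat2 and Irf9 and binds a DNA element called the ISRE. Type II interferon acts through Ifngr1 and Ifngr2 and leads to binding at a different element, called the GAS. The induced proteins include sensors of viral RNA, enzymes and membrane proteins that block viral replication, and the immunoproteasome and peptide transporter that supply peptides to MHC class I. Many of these genes also have a basal level without added interferon, which in myeloid cells is set in part by transcription factors such as Irf1, Irf8 and Irf9.

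The promoter stretches that hold these elements are shown for members that fell, rose, did not pass the test or were hardly detected. Capitals mark the matched letters and the stretches read 5′ to 3′ on the strand of the gene. They and the starts come from RefSeq on GRCm38.p6, which held windows from 250 bases before to 50 bases after the start for 30 of the 38 members. The RefSeq start used for Psmb8 lies inside the GENCODE span of the gene given below, 34197721 to 34201454. The stretch printed for Psmb8 lies inside that span too.
Stat2 (fell), 1 ISRE match 222 bases before the start, chr10:128270266-128270295, plus strand: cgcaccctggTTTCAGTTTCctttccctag
Bst2 (fell), 2 overlapping ISRE matches from 130 bases before the start, chr8:71537580-71537609, minus strand: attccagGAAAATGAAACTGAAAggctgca
Psmb8 (fell), 1 GAS match 97 bases before the start, chr17:34198088-34198117, plus strand: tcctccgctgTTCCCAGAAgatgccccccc
Ifit2 (fell), 1 GAS match 241 bases before the start, chr19:34550444-34550473, plus strand: catgggagcTTCCTGGAAgaatggataaaa
Ddx58 (rose), 1 ISRE match from transcribed base 3, chr4:40239796-40239825, minus strand: agTTTCGATTTCctatggccagccggctag
Ifitm3 (rose), 2 ISRE matches from transcribed bases 3 and 20, chr7:141010714-141010743, minus strand: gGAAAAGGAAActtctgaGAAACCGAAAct
Isg15 (did not pass), 3 overlapping ISRE matches from 78 bases before the start, chr4:156200871-156200900, minus strand: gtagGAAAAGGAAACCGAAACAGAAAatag
Oas1a (did not pass), 2 overlapping ISRE matches from 20 bases before the start, chr5:120907526-120907555, minus strand: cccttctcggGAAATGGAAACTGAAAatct
Ifit1 (5 reads in all), 2 ISRE matches 104 and 85 bases before the start, chr19:34640785-34640814, plus strand: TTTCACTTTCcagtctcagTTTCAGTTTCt
Ifit3 (0 reads), 1 of 2 ISRE matches, 122 bases before the start, chr19:34583397-34583426, plus strand: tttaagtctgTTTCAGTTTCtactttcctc
Rsad2 (45 reads in all), 1 ISRE match 120 bases before the start, chr12:26456553-26456582, minus strand: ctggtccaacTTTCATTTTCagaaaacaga

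The ISRE was searched as TTTCNNTTTC and its reverse complement GAAANNGAAA, and the GAS as TTCNNNGAA, which reads the same on both strands. An ISRE match stood in the windows of 16 of the 30 members, against 3.99% of the 27025 genes with such a window in the reference (3.44% of 32851 windows). A GAS match stood in those of 8 of the 30 members, against 9.55% of those genes (8.30% of windows). By outcome, an ISRE match was found for 2 of the 2 members with a window that rose, 3 of the 9 that fell, 6 of the 8 that did not pass the test and 5 of the 11 that were hardly detected. In Bst2 and Ifitm3 the GAS match overlapped an ISRE match. These are matches of letters and do not show binding.

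The steps of the RPKM values gave library totals between 3494986 and 4247619 reads, at which 3 reads on a 1 kb transcript amount to 0.706 to 0.858 RPKM. All 9 markers of the leukaemia line passed the filter on low values. Of these 4 rose, Ptprc, Itgam, Cd33 and Spi1, and 3 fell, against 15.4% and 27.5% of all genes tested. The falls were Kit at 2.17-fold, Mpo at 4.14-fold and Csf3r at 1.28-fold, while Hoxa9 and Meis1 did not pass. Of 9 T and NK cell markers 7 had 0 reads, as had 4 of 6 B cell and 4 of 6 erythroid markers, while the T and NK list's Nkg7 fell from 8.28 to 1.27 RPKM. Of 8 plasmacytoid dendritic cell markers, which include the member Bst2, 3 were tested: Cox6a2 rose from 58.1 to 111 RPKM, Tcf4 fell from 23.9 to 19.8 RPKM and Bst2 fell, while Siglech and Cd209d had 0 reads. The summed level of that list ran from 130.2 to 152.0 RPKM in Vehicle and from 179 to 182 RPKM in OMP. That sum rose through Cox6a2, while the other tested markers, Tcf4 and Bst2, fell. Of 8 monocyte markers 6 were tested: Cd14 rose from 23.6 to 76.0 RPKM, Ccr2 and Irf8 fell, and Csf1r and Adgre1 did not pass. The list's summed level was 2700.3 to 2752 RPKM in Vehicle and 2591 to 2713 RPKM in OMP. Nearly all of it was Ly6c2, at means of 2619.5 and 2520.9 RPKM, which did not pass (limma adjusted p = 0.155). The sum therefore says little about the other markers. Of 8 neutrophil markers 8 were higher with OMP, against 15.4% of all genes tested. Their summed level ran from 2486 to 2598 RPKM in Vehicle and from 8612 to 9119 RPKM in OMP. Among 8 conventional dendritic cell markers 3 were tested: Itgax and Cd74 rose and Flt3 fell. The 1 tested non-blood marker, Pecam1, fell from 83.4 to 55.6 RPKM. For each of these lists the shares over all genes tested were 15.4% higher and 27.5% lower. The part of these markers' cell types in the results on interferon-stimulated genes was not tested. In bulk RNA, fewer cells of a type and less RNA per cell cannot be told apart.

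Many classical interferon-stimulated genes were hardly detected in either group. The 6 libraries all held RPKM 1 or more for 20 members. Ifi44, Ifit3 and Oasl1 had 0 reads in all 6 libraries, which in each library allows up to 3 reads. Another 10 members, namely Zbp1, Oasl2, Ifit1, Mx1, Mx2, Rsad2, Ifitm1, Rtp4, Gbp2 and Cxcl9, had reads but stayed below RPKM 1 in every library. The other 5 members lay on both sides of RPKM 1. Usp18 was below it in OMP 3 and Ifit2 in OMP 2, while Oas2 was below it in Vehicle 2 and Vehicle 3. Cxcl10 reached RPKM 1 only in Vehicle 1 and Vehicle 3, and Xaf1 only in Vehicle 2. Of the 38 members 23 reached RPKM 1 in 3 or more libraries and were tested, and for 0 of them the libraries above 1 came from a single group. The 15 members under that filter had 123 reads together in Vehicle and 93 in OMP, and no more than 45 reads each. In the plot of their reads, most bars stand below 10 reads.

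**Figure D1:**
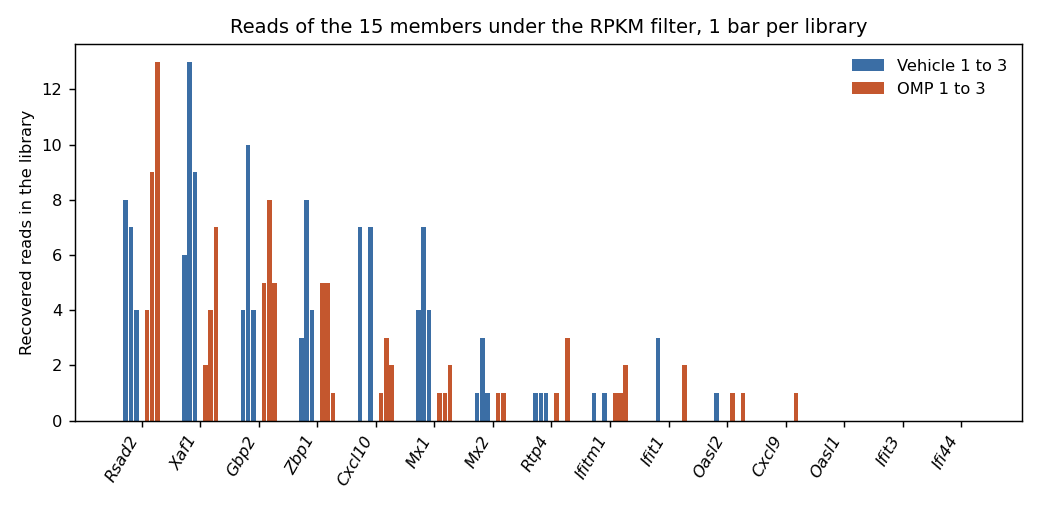
Recovered reads (vertical axis) of each of the 15 members under the filter, with 1 bar per library, Vehicle 1 to 3 and then OMP 1 to 3. Rsad2 reached 13 reads in OMP 3 and Xaf1 13 reads in Vehicle 2, and Oasl1, Ifit3 and Ifi44 had 0 reads in every library.

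Among the members with a measurable level, more fell than rose. The immunoproteasome subunits Psmb8 and Psmb9, the peptide transporter Tap1, the RNA sensors Ifih1 and Dhx58, the transcription factor Stat2 and the antiviral protein Ifit2 were lower with OMP. The RNA sensor Ddx58 and the membrane protein Ifitm3 were higher. Herc6, Cmpk2 and Bst2 were also called lower and the synthetase Oas2 higher. Those calls were lost when most of the single libraries were left out. Of the 23 members tested with limma, 3 rose and 10 fell at an adjusted p under 0.05, and 10 did not pass. Over all 11020 genes tested 43.0% passed, 15.4% higher and 27.5% lower, with median-of-ratios scaling 21.5% were higher and 20.3% lower, and after rescaling to TPM 11.0% and 36.1%. Of the 23 members 3 rose and 7 fell with median-of-ratios scaling, and 3 and 10 after rescaling to TPM. The median log2 fold change was -0.10 over the 23 tested members and -0.09 over all genes tested. The RPKM values of the groups did not overlap for 14 of the 23, against 54.5% of all genes tested. Without Vehicle 3, 2 members rose and 6 fell, against 36.0% of all genes called either way. With the filter at RPKM 5, 7 of 12 tested members were called, against 52.5% of all genes, and with a replicate block 11 of 23, against 40.3%.

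**Figure D2:**
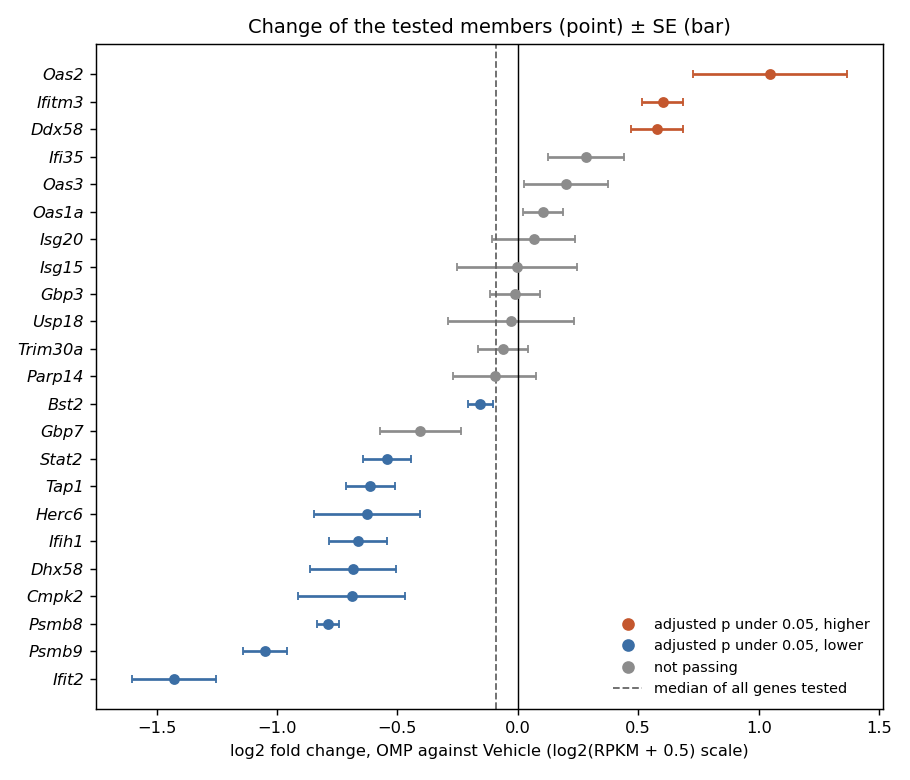
The log2 fold change of OMP against Vehicle (horizontal axis, on the log2(RPKM + 0.5) scale) for each of the 23 tested members, as a point with its SE as a bar, coloured by the limma call. Ifit2 at -1.43 and Psmb9 at -1.05 stand lowest and Oas2 at 1.05 highest, and the dashed line at -0.09 is the median of all genes tested.

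The immunoproteasome subunits Psmb8 and Psmb9 and the peptide transporter chain Tap1 all fell. Psmb8 (ENSMUSG00000024338, GRCm38 chromosome 17, 34197721 to 34201454) codes for a catalytic subunit that takes the place of Psmb5 in the immunoproteasome. It stood at 65.4, 68.8 and 66.5 RPKM in Vehicle 1 to 3 and at 39.2, 37.7 and 38.6 RPKM in OMP 1 to 3. All OMP libraries lay far below all Vehicle libraries (log2 fold change -0.79 ± 0.04 SE, limma adjusted p = 5.41e-06). Psmb9 (ENSMUSG00000096727, chromosome 17, 34181987 to 34187764), the subunit that takes the place of Psmb6, stood at 24.2, 20.8 and 23.4 RPKM in Vehicle and at 11.4, 11.3 and 9.55 RPKM in OMP. This was a 2.07-fold lower level without overlap (log2 fold change -1.05 ± 0.09 SE, limma adjusted p = 5.76e-05). Tap1 (ENSMUSG00000037321, chromosome 17, 34187553 to 34197225), a chain of the pump that carries peptides into the endoplasmic reticulum, stood at 20.1, 19.8 and 20.0 RPKM in Vehicle. In OMP it stood at 13.5, 10.9 and 14.6 RPKM, 1.53-fold lower (limma adjusted p = 0.00164). The 3 Vehicle values of Tap1 were close together and the OMP values were spread more widely, with no overlap. Exons of Psmb9 and Tap1 overlap on opposite strands, and the sources used here do not name the strand setting, so reads in that overlap cannot be separated.

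The 3 genes are neighbours on chromosome 17, but the third immunoproteasome subunit, Psmb10, which takes the place of Psmb7, did not fall. Psmb10 rose 1.15-fold, from 31.2 ± 1.11 to 36.0 ± 2.71 RPKM (SD, n = 3, limma adjusted p = 0.0346). That call was near the threshold and was not followed by itself under the alternatives. The constitutive subunits stood at 84.7 ± 1.49 RPKM for Psmb5, 160.4 ± 2.71 for Psmb6 and 74.3 ± 4.21 for Psmb7 in Vehicle, and at 68.5 ± 2.40, 170.6 ± 10.1 and 84.6 ± 9.28 RPKM in OMP (SD, n = 3). Psmb5 fell 1.23-fold (limma adjusted p = 0.000675), while Psmb6 and Psmb7 did not pass (limma adjusted p = 0.162 and 0.0987). Set against each other within each library, which removes the scaling of the library, the mean log2 level of Psmb8 and Psmb9 minus that of Psmb5, Psmb6 and Psmb7 was -1.35 ± 0.05 in Vehicle and -2.26 ± 0.11 in OMP (SD, n = 3). The change was -0.91, a 1.88-fold lower ratio, and the groups did not overlap. The exact two-sided permutation test gave p = 0.1, the smallest value that 3 against 3 libraries allow. With Psmb10 counted among the immunoproteasome subunits the change was -0.53. By catalytic pair, the change was -0.48 for Psmb8 against Psmb5, -1.14 for Psmb9 against Psmb6 and 0.02 for Psmb10 against Psmb7 (exact two-sided permutation p = 0.1, 0.1 and 0.9).

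**Figure D3:**
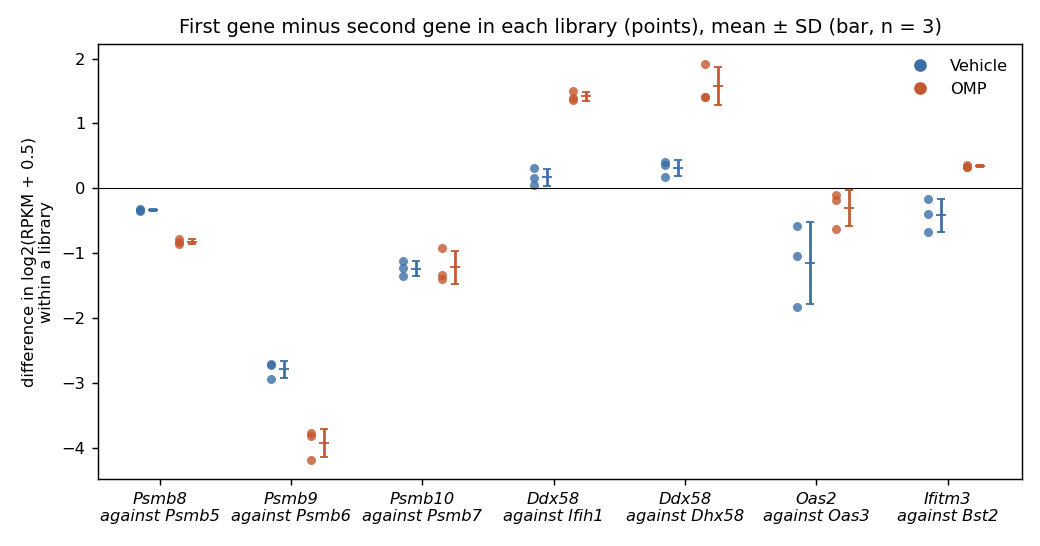
The difference in log2(RPKM + 0.5) between the genes of a pair within each library (vertical axis, first gene minus second), with points for libraries and a bar for the mean ± SD (n = 3). The OMP libraries lie below the Vehicle libraries for Psmb8 against Psmb5 and for Psmb9 against Psmb6, and above them for Ddx58 against Ifih1 and against Dhx58, while the groups overlap for Psmb10 against Psmb7 and for Oas2 against Oas3.

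The cytosolic sensors of viral RNA moved in opposite directions. Ddx58 (ENSMUSG00000040296, chromosome 4, 40203773 to 40239828) codes for RIG-I, which recognises RNA ends. It stood at 4.70, 5.36 and 5.96 RPKM in Vehicle and at 8.12, 7.92 and 8.53 RPKM in OMP, so that every OMP library was higher (log2 fold change 0.58 ± 0.11 SE, limma adjusted p = 0.00296). Ifih1 (ENSMUSG00000026896, chromosome 2, 62595798 to 62646255) codes for MDA5, which recognises long double-stranded RNA. It stood at 4.50, 4.78 and 4.69 RPKM in Vehicle and at 2.77, 2.78 and 2.70 RPKM in OMP, 1.59-fold lower with little spread within either group (limma adjusted p = 0.00263). Dhx58 (chromosome 11, 100694884 to 100704271) codes for LGP2, a relative of both that lacks their signalling domains. It stood at 4.10, 4.05 and 4.39 RPKM in Vehicle and at 1.78, 2.68 and 2.90 RPKM in OMP, 1.61-fold lower without overlap (limma adjusted p = 0.0147), and missed the threshold without Vehicle 3 (limma adjusted p = 0.0501). Dhx58 overlaps exons of its antisense gene Dhx58os.

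Ddx58 and Ifih1 were at similar levels in Vehicle and 1.42 log2 units apart in OMP. The log2 level of Ddx58 minus that of Ifih1 was 0.06, 0.15 and 0.31 in Vehicle 1 to 3 and 1.40, 1.36 and 1.50 in OMP 1 to 3, a change of 1.24. Against Dhx58 the change was 1.26. Both pairs were chosen after their values were seen, and the exact two-sided permutation p was 0.1 for each, the smallest possible. Zbp1, a sensor of nucleic acids in the Z conformation, had 3, 8 and 4 reads in Vehicle and 5, 5 and 1 reads in OMP.

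The 4 signalling and feedback genes included 2 falls and 0 rises, against 27.5% and 15.4% of all genes tested. Stat2 (ENSMUSG00000040033, chromosome 10, 128270559 to 128292849), a transcription factor of type I signalling, stood at 11.5, 10.0 and 9.42 RPKM in Vehicle and at 7.16, 6.40 and 7.15 RPKM in OMP. It was 1.46-fold lower without overlap (log2 fold change -0.54 ± 0.10 SE, limma adjusted p = 0.00286). Herc6, the mouse ligase for the ubiquitin-like protein Isg15, stood at 1.80, 2.77 and 2.02 RPKM in Vehicle and at 1.38, 1.18 and 1.13 RPKM in OMP (limma adjusted p = 0.0480). The groups did not overlap, but the call was lost when any of the 6 libraries was left out (limma adjusted p = 0.0526 to 0.170) and with median-of-ratios scaling (limma adjusted p = 0.0734). Isg15 itself stood at 3.54, 2.59 and 3.11 RPKM in Vehicle and at 1.89, 3.72 and 3.91 RPKM in OMP, with overlapping groups (limma adjusted p = 0.989). Usp18, which removes Isg15 from proteins and dampens the receptor, had 24 reads in Vehicle and 21 in OMP (limma adjusted p = 0.941). At 54 and 45 reads in all, changes of Isg15 and Usp18 are poorly resolved.

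**Figure D4:**
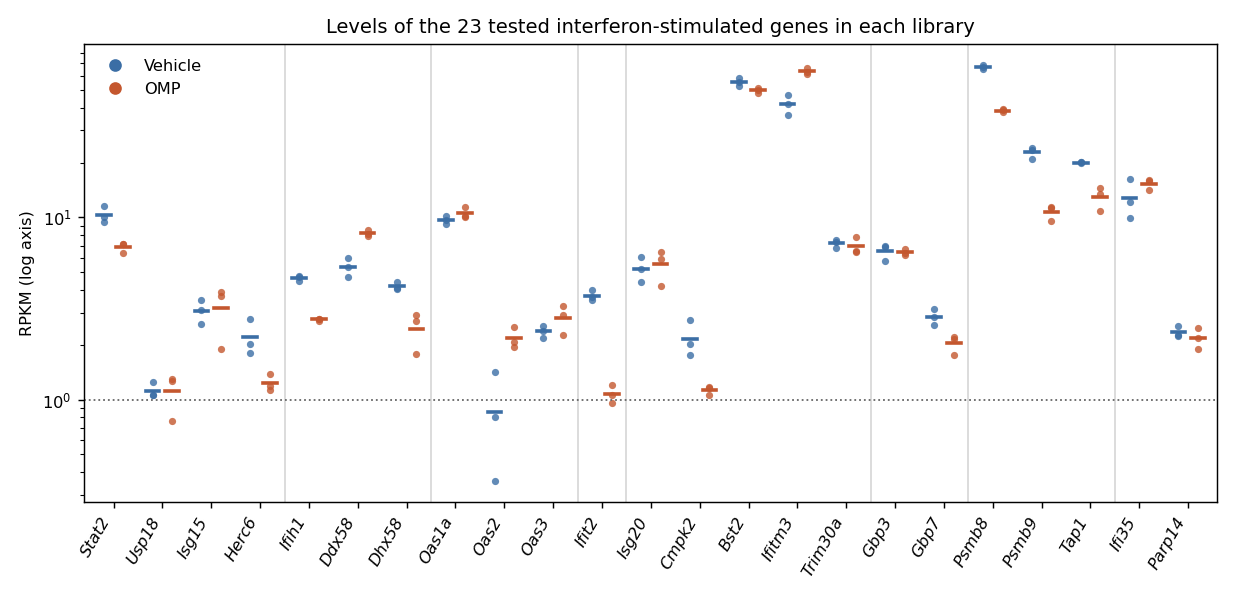
RPKM in each library (vertical log axis) of the 23 tested members, ordered by role from signalling genes to other induced genes, with points for libraries and a line for the group mean. Psmb8, Bst2 and Ifitm3 had the highest levels, the dotted line marks RPKM 1, and the OMP points of Psmb8, Psmb9, Tap1 and Ifit2 lie below all their Vehicle points.

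The oligoadenylate synthetases detect double-stranded RNA and activate RNase L. Oas2 (ENSMUSG00000032690, chromosome 5, 120730333 to 120749853) stood at 1.42, 0.802 and 0.357 RPKM in Vehicle and at 1.95, 2.06 and 2.51 RPKM in OMP. These values come from 40 Vehicle and 93 OMP reads, and the Vehicle libraries differed widely among themselves. Oas2 was 2.07-fold higher on the log2(RPKM + 0.5) scale (limma adjusted p = 0.0281). The call held without Vehicle 1 (limma adjusted p = 0.0112) and was lost when any of the other 5 libraries was left out, with a highest limma adjusted p of 0.0907. It was also lost with no filter (limma adjusted p = 0.0712). Oas1a, with means of 9.73 ± 0.488 (Vehicle) and 10.5 ± 0.764 RPKM (OMP), and Oas3, at 2.37 ± 0.185 and 2.81 ± 0.509 RPKM (SD, n = 3), did not pass (limma adjusted p = 0.350 and 0.390). Set against Oas3 within a library, the change of Oas2 was 0.85 with overlapping groups (exact two-sided permutation p = 0.2), and set against Oas1a it was 0.94 without overlap (exact two-sided permutation p = 0.1). Oas1a has close relatives in the same cluster, so how reads were divided among them is uncertain. The OAS-like genes Oasl1 and Oasl2 had 0 and 3 reads.

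The IFIT proteins bind viral RNA and translation factors. Ifit2 (ENSMUSG00000045932, chromosome 19, 34550694 to 34576419) showed the largest fall among the tested members. It had 52, 55 and 65 reads in Vehicle and 16, 13 and 15 reads in OMP, or 3.64, 3.52 and 4.01 RPKM against 1.20, 0.959 and 1.06 RPKM. The log2 fold change was -1.43 ± 0.17 SE (limma adjusted p = 0.000332). The mean RPKM was 3.48 times higher in Vehicle than in OMP, more than the 2.69-fold of the log2(RPKM + 0.5) scale, which understates changes of low genes. Ifit1 and Ifit3, further along the same chromosome, had 5 and 0 reads in all. Ifit3 has the near-identical copy Ifit3b, also at 0 reads, and the treatment of reads shared by such copies is not known here.

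Among 5 tested antiviral effectors 1 rose and 2 fell, against 15.4% and 27.5% of all genes tested. The rise, of Ifitm3, kept its call under every alternative, while the falls of Cmpk2 and Bst2 were each lost under 9. Ifitm3 (ENSMUSG00000025492, chromosome 7, 141009586 to 141010770), a membrane protein that blocks virus entry, stood at 36.3, 46.9 and 42.0 RPKM in Vehicle and at 62.9, 61.0 and 65.8 RPKM in OMP. Every OMP library was higher (log2 fold change 0.60 ± 0.09 SE, limma adjusted p = 0.000755). The related Ifitm2, named after its values were seen, rose 1.36-fold, from 59.7 ± 5.01 to 81.1 ± 2.03 RPKM (SD, n = 3, limma adjusted p = 0.000741), and Ifitm1 had 2 Vehicle and 4 OMP reads. Set against Bst2, another antiviral membrane protein, the log2 level of Ifitm3 was -0.42 ± 0.26 in Vehicle and 0.34 ± 0.015 in OMP (SD, n = 3), so that Ifitm3 was the lower of the pair in every Vehicle library and the higher in every OMP library (exact two-sided permutation p = 0.1). Cmpk2, a mitochondrial nucleotide kinase, stood at 2.01, 1.76 and 2.72 RPKM in Vehicle and at 1.16, 1.06 and 1.18 RPKM in OMP, 1.61-fold lower (limma adjusted p = 0.0342). The call of Cmpk2 held without Vehicle 2 (limma adjusted p = 0.0406) and was lost without any of the other 5 libraries, with a highest limma adjusted p of 0.131. It was also lost with median-of-ratios scaling, quantile normalization and no filter (limma adjusted p = 0.0504, 0.0640 and 0.0772). Bst2, or tetherin, which holds virus particles at the cell surface, was the second most abundant member in Vehicle. It stood at 58.4, 52.8 and 55.6 RPKM in Vehicle and at 49.9, 48.3 and 51.3 RPKM in OMP, and the groups lay close together without overlap. Its fall of 1.11-fold passed (limma adjusted p = 0.0387), but not with median-of-ratios scaling (limma adjusted p = 0.327) or limma-voom on recovered reads (limma adjusted p = 0.187). It also missed the threshold when any library other than Vehicle 2 was left out (limma adjusted p up to 0.128).

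Isg20, an exonuclease, at 5.23 ± 0.821 and 5.54 ± 1.18 RPKM, and Trim30a, at 7.23 ± 0.381 and 6.92 ± 0.730 RPKM in Vehicle and OMP (SD, n = 3), did not pass. The dynamin-like GTPase Mx1 had 4, 7 and 4 reads in Vehicle and 1, 1 and 2 reads in OMP, so that the groups did not overlap. In the fit without a filter its limma adjusted p was 0.0986, and of the 12 low members with reads 0 passed in that limma fit, against 20.2% of all genes with reads, while 1 had an unadjusted p under 0.05. Rsad2, or viperin, a radical-SAM enzyme whose gene lies next to Cmpk2 on chromosome 12, had 8, 7 and 4 reads in Vehicle and 4, 9 and 13 reads in OMP. Mx2 and Rtp4 had 7 reads each in all.

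The guanylate-binding proteins attack vacuoles that hold pathogens and respond strongly to type II interferon. Gbp3 had a mean of 6.52 ± 0.637 RPKM with vehicle and of 6.44 ± 0.265 RPKM with OMP (SD, n = 3, limma adjusted p = 0.929). Gbp7 stood at 2.57, 3.13 and 2.85 RPKM in Vehicle and at 2.14, 1.76 and 2.20 RPKM in OMP. Its groups did not overlap, but its log2 fold change of -0.41 ± 0.17 SE did not pass (limma adjusted p = 0.0829). It passed with limma-voom on recovered reads (limma adjusted p = 0.0159). Gbp2 had 18 reads in each group. Guanylate-binding proteins share long stretches of sequence, which leaves the division of reads among them uncertain.

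The interferon-induced chemokines, which draw T cells through Cxcr3, were hardly detected. Cxcl9 had 1 read in all, in OMP 2. Cxcl10 had 7, 0 and 7 reads in Vehicle and 1, 3 and 2 reads in OMP, so that its Vehicle libraries lay on both sides of the OMP libraries. The remaining induced genes did not pass or were not tested. Ifi35, at 16.3, 9.87 and 12.1 RPKM in Vehicle and 14.1, 16.1 and 15.8 RPKM in OMP, did not pass (limma adjusted p = 0.182), but did without Vehicle 1 (log2 fold change 0.47, limma adjusted p = 0.0146). Parp14, a mono-ADP-ribosyltransferase, stood at 2.35 ± 0.165 and 2.17 ± 0.292 RPKM (SD, n = 3, limma adjusted p = 0.681). Xaf1, a gene linked to apoptosis, had 28 reads in Vehicle and 13 in OMP, and Ifi44 had 0 reads.

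Genes upstream of the programme included no detected interferon. Of 20 interferon genes, among them Ifnb1, Ifng and the listed Ifna genes, 20 had 0 reads in all 6 libraries, which in each library allows up to 3 reads of each. The type I receptor chains Ifnar1 (26.3 ± 3.01 and 28.6 ± 2.37 RPKM) and Ifnar2 (31.7 ± 2.24 and 31.0 ± 4.46 RPKM in Vehicle and OMP, SD, n = 3) did not pass (limma adjusted p = 0.309 and 0.764). Ifngr1, the ligand-binding chain for type II interferon, fell 1.98-fold, from 171.6 ± 2.65 to 86.4 ± 2.89 RPKM (limma adjusted p = 8.54e-07). Of 8 tested receptor and kinase genes 1 rose, Jak1 at 1.22-fold, and 2 fell, Ifngr1 and Tyk2. Over all genes tested 15.4% rose and 27.5% fell. Tyk2 was 1.19-fold lower, and its call held without OMP 1 and was lost without any of the other 5 libraries (highest limma adjusted p = 0.0637). It was also lost with median-of-ratios scaling (limma adjusted p = 0.103).

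The transcription factors of the pathway included 2 falls and no rises among 8 tested. Over all genes tested 27.5% fell and 15.4% rose. Irf8 fell 5.26-fold, from 38.6 ± 2.02 to 6.96 ± 0.754 RPKM, and Irf1 fell 1.47-fold, from 11.0 ± 0.898 to 7.41 ± 1.21 RPKM (SD, n = 3, limma adjusted p = 5.86e-07 and 0.00655). Irf9, which binds DNA together with Stat2, stood at 7.48 ± 0.454 and 6.65 ± 0.509 RPKM, and Irf7, at 1.72 ± 0.955 and 1.36 ± 0.703 RPKM, had a wide spread (SD, n = 3). Neither passed (limma adjusted p = 0.221 and 0.664).

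Genes of the sensing routes moved in both directions. Of 14 tested adaptors and kinases 3 rose and 5 fell, against 15.4% and 27.5% of all genes tested. Mavs, the mitochondrial adaptor on which RIG-I and MDA5 both signal, fell 1.48-fold, Ikbke, a kinase of Irf3 and Irf7, fell 1.39-fold and Irak4 fell 1.30-fold. Tlr4, the lipopolysaccharide receptor, rose 1.57-fold, from 14.7 ± 0.434 to 23.4 ± 1.72 RPKM (SD, n = 3). Ticam1 rose 1.29-fold and Traf3 1.17-fold, but the call of Ticam1 held only without OMP 2 among the 6 libraries left out (highest limma adjusted p = 0.114), and that of Traf3 was lost without any of them (limma adjusted p = 0.0505 to 0.0890). Both also missed the threshold after rescaling to TPM (limma adjusted p = 0.0839 and 0.122). Of 12 tested brakes and RNA-processing genes 2 rose and 6 fell, against the same shares of all genes. Pias1, a SUMO ligase that dampens interferon signalling, and Rnaseh2a, a subunit of RNase H2, each fell 1.53-fold and Rnaseh2c fell 1.44-fold, while Samhd1, a dNTP hydrolase, rose 1.24-fold and the phosphatase gene Ptpn6 1.19-fold. Eif2ak2, the kinase PKR, fell 1.40-fold, and the RNA-editing enzyme gene Adar did not pass (limma adjusted p = 0.453).

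Other genes known as interferon-stimulated also moved in both directions. Of 50 tested 17 rose and 9 fell, against 15.4% and 27.5% of all genes tested. The largest rises were Ifitm6, from 2.85 ± 0.402 to 18.0 ± 2.17 RPKM, Slfn1, from 1.43 ± 0.293 to 9.66 ± 0.146 RPKM, and Fcgr1, the high-affinity IgG receptor, from 2.33 ± 0.224 to 6.67 ± 0.560 RPKM (SD, n = 3). The largest falls were Slfn9 at 1.81-fold, Ly6e, a membrane-anchored protein, from 212.2 ± 5.81 to 125.1 ± 3.10 RPKM, and Pml, the organiser of nuclear bodies, from 13.9 ± 0.865 to 8.53 ± 0.324 RPKM (SD, n = 3). Of 17 tested presentation partners 6 rose and 7 fell, against the same shares of all genes. Psme2, a subunit of the proteasome activator that works with the immunoproteasome, fell 1.51-fold, from 83.4 ± 0.490 to 55.0 ± 3.21 RPKM (SD, n = 3). The class Ib genes H2-Q4 and H2-Q7 fell 2.60-fold and 2.31-fold, while H2-T23 rose 1.29-fold and the classical class I gene H2-D1 1.15-fold. Cd74, the invariant chain, rose 2.74-fold at a low level, from 1.32 ± 0.672 to 4.28 ± 0.101 RPKM (SD, n = 3). These values come from 22 Vehicle and 65 OMP reads. H2-K1, also a classical class I gene, did not share the rise of H2-D1. It had 1584, 1798 and 1824 reads in Vehicle and 1331, 1343 and 1505 in OMP, before scaling to library totals. Those totals were 3737843 to 4247619 reads in Vehicle and 3494986 to 3720117 in OMP, so the unscaled reads overstate the difference. H2-Q and H2-D genes are near-identical in parts, and their reads may be divided wrongly. Of the 7 constitutive beta subunits 1 rose, Psmb3 at 1.33-fold, and 3 fell, Psmb5, Psmb1 and Psmb4. Psmb1 missed the threshold with median-of-ratios scaling (limma adjusted p = 0.0503), as did Psmb4 (limma adjusted p = 0.176), and Psmb4 also without Vehicle 1, OMP 1 or OMP 3 (highest limma adjusted p = 0.0658). Over all 116 tested genes of these lists 30 rose and 34 fell, or 36 and 25 with median-of-ratios scaling and 24 and 41 after rescaling to TPM. The shares over all genes tested were 15.4% higher and 27.5% lower. They were 21.5% and 20.3% with median-of-ratios scaling, and 11.0% and 36.1% after rescaling to TPM.

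**Figure D5:**
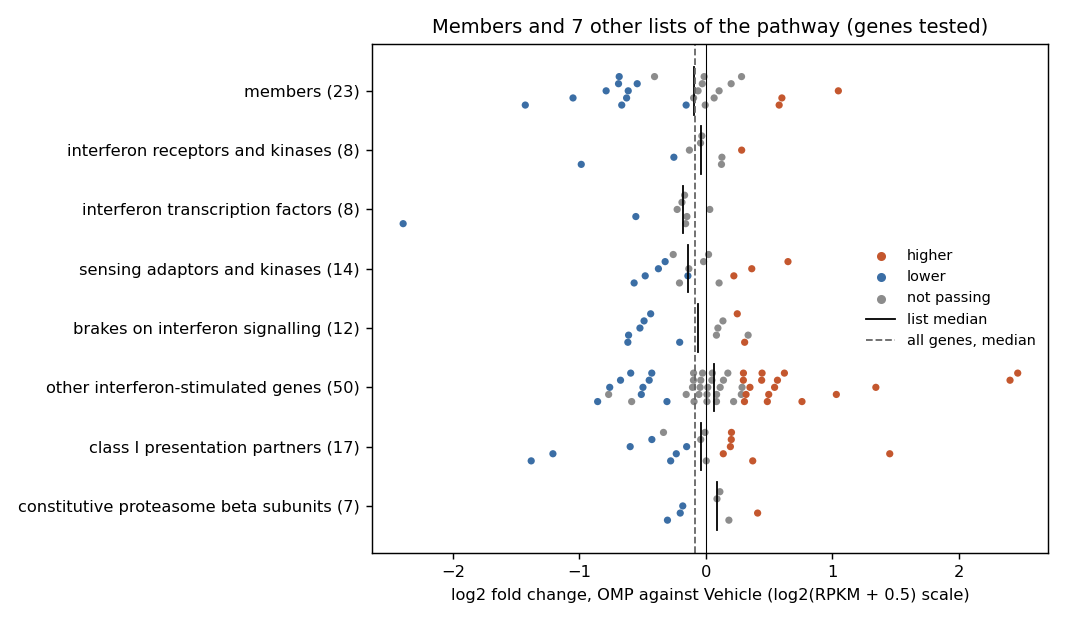
The log2 fold change of OMP against Vehicle (horizontal axis, log2(RPKM + 0.5) scale) of each tested gene, for the 23 tested members and 7 other lists of the pathway, coloured by the limma call, with the list median as a line. Irf8 at -2.39 stands lowest and Ifitm6 at 2.47 highest, and the list medians lay between -0.18 and 0.09.

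Members that lie next to each other did not all receive the same call. A gene that did not pass or was not tested is not thereby shown to differ from a called neighbour. Psmb9, Tap1 and Psmb8, within 34181987 to 34201454 of chromosome 17, all fell. On chromosome 5, Oas2 rose while its neighbours Oas3 and Oas1a did not pass. On chromosome 19 Ifit2 fell while Ifit3 and Ifit1 were hardly detected, and on chromosome 12 Cmpk2 fell while Rsad2 stayed below RPKM 1. On chromosome 3 Gbp7 and Gbp3 did not pass and Gbp2 stayed below RPKM 1. The calls of Oas2 and Cmpk2 each held in only 1 of the 6 fits that left out a library. Set against Oas3 within a library, Oas2 had overlapping groups (exact two-sided permutation p = 0.2).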

How the data were processed

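Poly(A)-selected RNA of 6 libraries was prepared as TruSeq libraries, per the labels' protocols. The authors deposited RPKM, 1 column per library. The submitters' processing notes name featureCounts 1.6.3, STAR 2.5.3a, Trimmomatic 0.36, FastQC 0.11.5 and the build mm10 (GRCm38). Strand setting, annotation release and the handling of multi-mapped reads: not given in the sources used here. Columns were matched to libraries by title.

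OMP was compared with Vehicle with limma 3.58.1 in R 4.3.3 on log2(RPKM + 0.5), over the 11020 genes that reached RPKM 1 in 3 or more libraries. The prior variance followed the mean level, and two-sided p-values received Benjamini-Hochberg adjustment across those genes (threshold 0.05). Fold changes are on this log2 scale, on which low genes change less than they do in RPKM. The procedure was tried on simulated reads in which 200 genes changed in random directions, far fewer than were called here. That trial does not cover changes as widespread as these or a scaling shift between groups. Whole reads were recovered for 100% of the 19970 genes above 0, within a relative tolerance of 1e-06. For some genes, Psmb9 and H2-K1 among them, the length used matched no annotated transcript. Their reads are the smallest whole numbers their values allow. The labels name no molecular identifiers, so reads are not independent molecules and limits cover counting error only. Gene positions are from GENCODE M21 on GRCm38 and promoters from RefSeq. Same-group libraries differed by more than sampling noise (chi-square per degree of freedom 1.19 to 1.60). Nothing in the labels ties the replicates to separate cultures, so the p-values reflect only library-to-library spread, possibly technical.

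The members and lists were chosen with earlier results of these data known, and the pairs of single genes after their values were seen; 9 within-library differences were computed, and with 3 against 3 libraries none of them can reach a p under 0.05. All members were named. From each other list of the pathway the 3 largest rises and 3 largest falls past the threshold were named, with 10 genes fixed by name, of which 1 is not reported here. Of the 186 listed pathway entries 183 matched the table, 2 of the others being alternative symbols of listed genes. Alternatives were 2 other pseudocounts, 2 other filters, 3 scalings, a robust prior, a replicate block, limma-voom on recovered reads and leaving out each library in turn.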

Additional observations from a re-analysis of the deposited data

How the results depend on the processing

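Of the 23 tested members, 319 values under the alternatives gave the same call, 36 no longer passed, 2 newly passed and 0 changed sign past the threshold. Psmb8, Psmb9, Tap1, Stat2, Ifih1, Ifit2, Ddx58 and Ifitm3 kept their call under every alternative in which they were tested. The 13 called members became 7 with a filter at RPKM 5, which tests 12 of the 23 members and only 7 of the 13, and 8 to 11 when 1 library was left out, with the 8 without Vehicle replicate 3. They were 9 to 13 under the other alternatives. The 64 called genes of the other pathway lists were 56 to 65 throughout. For the named genes among them, 592 values gave the same call and 29 no longer passed. The immunoproteasome ratio changed by -0.53 with Psmb10 and by -0.97 to -0.85 when 1 library was left out. No pairing by replicate number was seen. Deviations of same-numbered libraries correlated at -0.0024 to 0.015, and for 0 libraries was the same-numbered one the best match. With 3 libraries per group and counting noise in each, such correlations cannot exclude a pairing. Under the replicate block 11 members and 61 genes of the other lists were called, and Herc6 and Cmpk2 lost their call. Depth limits the 15 members under the filter and, among the tested, those with few reads such as Usp18 (45 reads) and Isg15 (54 reads).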
